A study of Mus musculus with 6 samples.

Results

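Peroxisomes are small organelles that break down very long chain and branched fatty acids, make the first steps of ether lipids and destroy the hydrogen peroxide that their oxidases release. Their proteins are made in the cytosol and brought in by peroxins, the products of the Pex genes, which build the membrane, import the matrix enzymes and control the number of organelles. Hepatocytes are rich in peroxisomes, and in rodent liver many of the enzyme genes, with Pex11a, are known targets of the fatty acid receptor PPAR-alpha. The set described here holds 35 genes of the 34745 in the deposited table, taken by exact gene name: 13 Pex genes of peroxisome biogenesis, and 22 genes of peroxisomal enzymes and membrane transport. All 35 were found, and 34 had enough counts to be tested. The exception was Dao, which encodes D-amino acid oxidase, with 2 counts in WT 1 and 0 in the other 5 libraries.

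RNA was sequenced from liver of mice labelled HKO, the series' Sox9HKO line (3 libraries), and from Sox9f/f mice labelled WT (3 libraries), all C57BL/6, 12 weeks old and 48 h after partial hepatectomy (PHx), in which part of the liver is removed and the rest regrows. The labels give the cell type as hepatocyte and the tissue as liver. The Sox9f/f mice carry the conditional allele, so WT does not mean an unmodified Sox9 locus. Which promoter drove the deletion, which exons it removes and whether each library is 1 animal are not stated in the labels, and the p-values below therefore speak only of variation among these 6 libraries. The libraries are called HKO 1 to 3 and WT 1 to 3 by the numbers in their labels. Levels below are CPM (a gene's share of its library's counts, scaled between libraries by TMM) unless FPKM is named, fold changes are HKO over WT on the log2 scale, and a gene is said to have risen or fallen only at an adjusted p below 0.05 in edgeR's quasi-likelihood test over 12556 genes.

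The libraries held 18136185, 18389222 and 21168233 counts in HKO 1, 2 and 3 and 17032057, 18514962 and 16659778 counts in WT 1, 2 and 3. Sox9 was at 6.34, 4.30 and 4.78 CPM in HKO 1, 2 and 3, against 6.94, 13.7 and 11.4 CPM in WT 1, 2 and 3 (log2 fold change -1.05, SE 0.27, adjusted p = 0.0284), a fall whose call was lost without HKO 2, HKO 3, WT 2 or WT 3 (adjusted p from 0.0503 to 0.0975, and from 0.00402 to 0.0975 over all alternatives). The 13 mitochondrial genes took 25.9% of counts in HKO 2 and 12.1% to 16.3% in the other 5 libraries. The 5 hepatocyte markers found (Alb, Ttr, Apoa1, Hnf4a and Serpina1a) were abundant, summing to 61817 to 62922 CPM in HKO and 72659 to 89288 CPM in WT, with 1 of 5 lower and 4 not past the threshold. Markers of other cells differed by list. Macrophage markers summed to 75.7 to 110 CPM in HKO and 53.9 to 56.7 CPM in WT (4 of 4 higher), and B and plasma cell markers to 20.0 to 27.2 CPM in HKO and at most 2.13 CPM in WT (3 of 3 tested higher, with Cd79a near 0). Endothelial markers summed to 73.2 to 219 CPM in HKO and 45.1 to 67.0 CPM in WT (1 of 4 higher), and stellate markers to 16.2 to 208 CPM in HKO and 18.9 to 28.7 CPM in WT (0 of 4 past the threshold), the top values being those of HKO 2. The stellate sums of HKO 1 and HKO 3, 16.2 and 17.2 CPM, lay below every WT library. Of the bile duct markers, Krt7, Krt19 and Epcam were at 0 to 3.20 CPM and only Spp1 was tested, which was lower; the list summed to 19.0 to 41.3 CPM in HKO and 47.1 to 144 CPM in WT. T and NK cell markers summed to 0.0456 to 0.523 CPM in HKO and 0 to 0.305 CPM in WT, and neutrophil markers, with Ly6g at 0 throughout, to 0.269 to 2.15 CPM in HKO and 0.222 to 0.305 CPM in WT, with none tested. In bulk RNA, fewer cells of a type and less RNA per cell cannot be told apart, and the part of these shifts in the results below was not tested.

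Peroxisomal genes were more often higher than lower in HKO, and the largest differences lay in fatty acid beta-oxidation and in urate oxidase. Of the 34 tested genes 14 rose, none fell and 20 did not pass the test, where 12.1% of all tested genes rose and 11.2% fell. Among the 13 Pex genes 5 rose (38.5%), and their median change was 0.31 (log2). Among the 21 tested enzyme and transport genes 9 rose (42.9%), and their median was 0.38, against a median of 0.02 for all genes tested. The groups thus differed little in their medians but much in their upper end: the Pex genes ran from -0.16 to 1.02, and the enzyme and transport genes from -0.44 to 2.21. At least 2-fold rises were 1 of 13 in biogenesis and 5 of 21 in enzymes and transport, beside 529 of all 12556 genes tested. All 3 HKO libraries lay above all 3 WT libraries for 8 of the 13 Pex genes and 13 of the 21 enzyme and transport genes, where 22.6% of all tested genes did so. Only Pex2 lay wholly below WT, where 21.6% of all tested genes did so. No test of the difference between the 2 groups of genes was made. The Pex count was 2 without HKO 1, 3 without HKO 3, 2 without WT 1, 2 without WT 2 and 1 without WT 3. The enzyme and transport count was 6 without each of these, and 1 gene, Crot, fell without WT 1. Calls over all genes dropped in the same fits, to 1100 of 12825 higher without HKO 1 and 969 of 12766 without HKO 3. They were 1086 of 12786 without WT 1, 952 of 12802 without WT 2 and 722 of 12827 without WT 3. The calls of Ehhadh, Acaa1b, Acaa1a, Decr2, Uox and Pex11a were kept under all 13 alternatives.

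**Figure D1:**
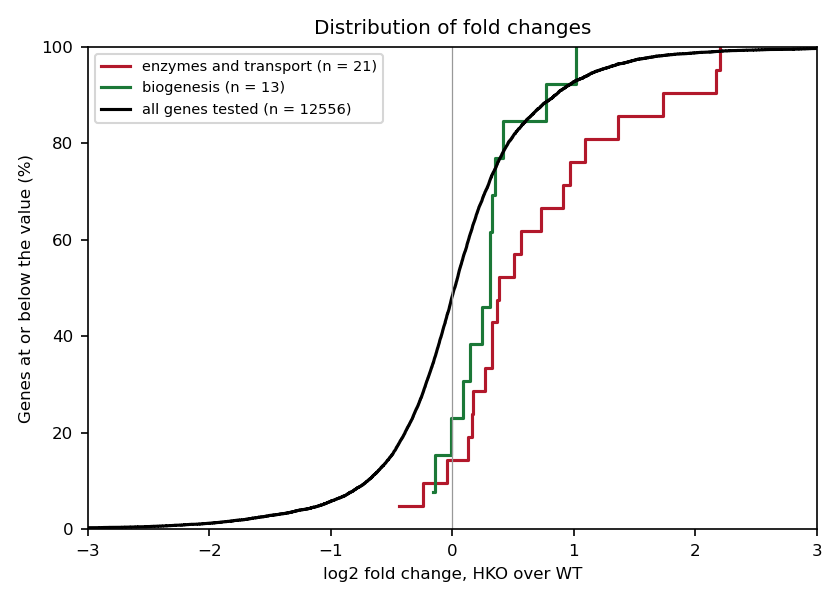
Cumulative share of genes (y axis, percent) at or below each log2 fold change of HKO over WT (x axis, drawn from -3 to 3) for 21 enzyme and transport genes, 13 Pex genes and all 12556 genes tested. Both peroxisomal lines run to the right of the line of all genes around 0, with medians of 0.38 and 0.31 against 0.02, and of these 2 lines the enzyme line reaches farther, to 2.21 against 1.02.

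Summed over their members, both groups were higher in every HKO library than in any WT library. The Pex genes summed to 686, 600 and 614 CPM in HKO 1, 2 and 3, against 509, 495 and 496 CPM in WT 1, 2 and 3, a ratio of means of 1.27. The enzyme and transport genes summed to 8744, 7269 and 8285 CPM in HKO 1, 2 and 3, against 4530, 5255 and 5164 CPM in WT 1, 2 and 3, a ratio of 1.63. Within HKO the lowest sum of each group was that of HKO 2. That library held the lowest HKO value in 22 of the 34 tested genes, and HKO 1 held the highest in 24. Without HKO 2, 4 Pex genes and 10 enzyme and transport genes rose, beside 1589 of all 12716 genes tested in that fit.

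**Figure D2:**
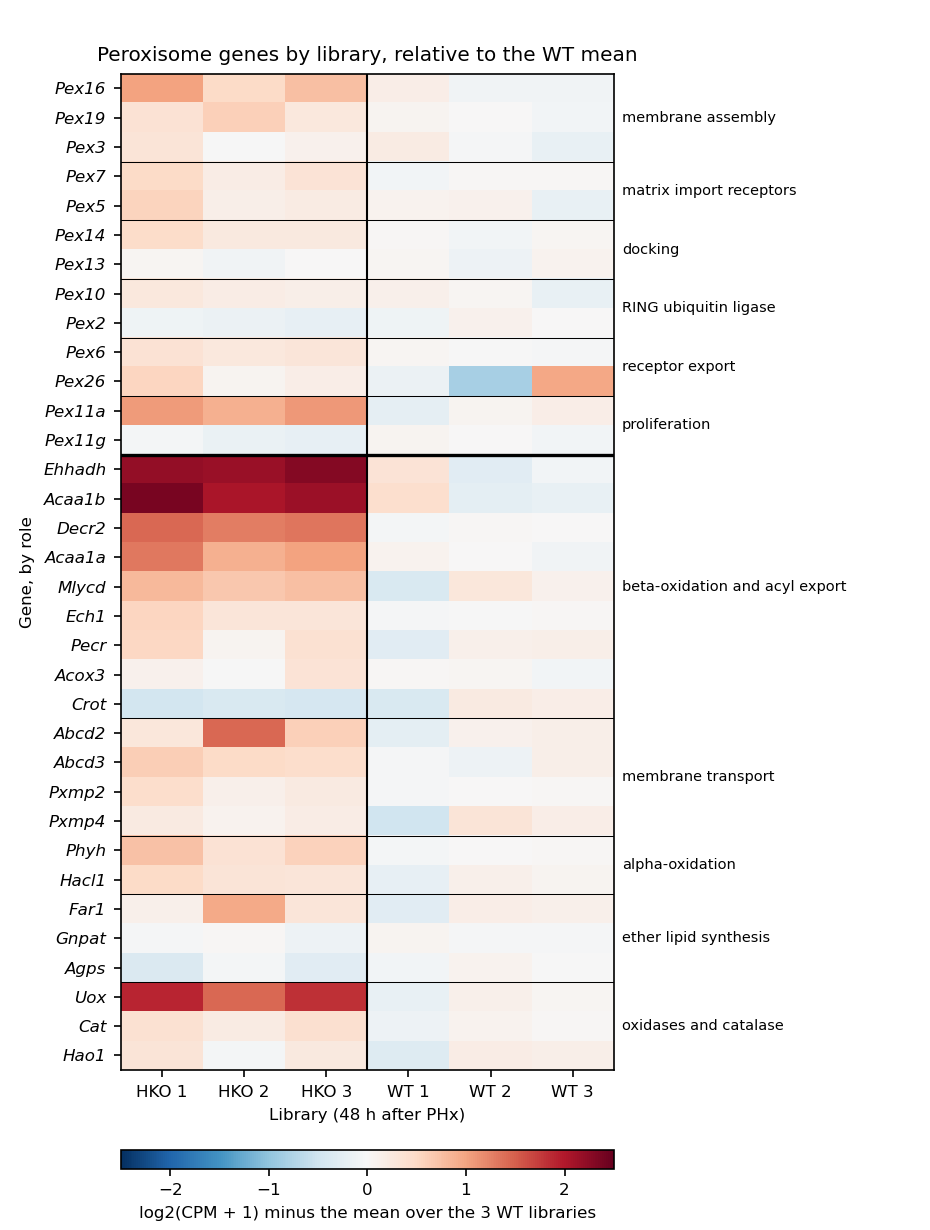
Each cell is a gene's log2(CPM + 1) in 1 library minus its mean over the 3 WT libraries, red above and blue below, with HKO libraries on the left, WT libraries on the right and the 34 tested genes in rows by role; the thick line divides Pex genes from enzymes and transport. Ehhadh, Acaa1b, Uox, Decr2, Acaa1a and Pex11a are red in all 3 HKO libraries, and Pex26 differs most among the WT libraries.

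Of the genes that act earliest in making a peroxisome, 2 of 3 rose (66.7%), where 12.1% of all tested genes did so. PEX3, PEX16 and PEX19 bring newly made membrane proteins to the organelle, PEX19 as their soluble chaperone and PEX3 as its anchor. Pex16 (chromosome 2, 92374676 to 92381217, plus strand) was at 74.5, 50.8 and 61.7 CPM in HKO 1, 2 and 3, against 40.8, 34.4 and 34.2 CPM in WT 1, 2 and 3. The groups did not overlap, and the log2 fold change was 0.77 (SE 0.15, adjusted p = 0.0108). Pex19 measured 87.6, 103 and 82.0 CPM in HKO and 70.9, 68.0 and 64.8 CPM in WT, again without overlap (log2 fold change 0.42, SE 0.11, adjusted p = 0.0287), and unlike most of the set it was highest in HKO 2. Pex3 overlapped, with 25.6, 20.1 and 21.9 CPM in the HKO libraries and 23.6, 19.8 and 17.7 CPM in the WT libraries, and did not pass the test (log2 fold change 0.14, 95% interval -0.19 to 0.48). The call of Pex16 was lost without WT 3 (adjusted p = 0.0555, and from 0.000286 to 0.0555 over all alternatives), and that of Pex19 without HKO 1, HKO 2 or any WT library (adjusted p from 0.0540 to 0.118, and from 0.0160 to 0.118 over all alternatives). Exons of Pex16 overlap those of Large2 on the opposite strand by 127 bases and those of Pex3 overlap Adat2 by 249 bases, and counts with no stated strand cannot separate such pairs.

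Of the matrix import receptors and the docking proteins, Pex7 rose and Pex5, Pex13 and Pex14 did not pass the test. PEX5 and PEX7 carry enzymes to the organelle, PEX5 by the common C-terminal signal and PEX7 by the N-terminal one, and they dock on PEX13 and PEX14 in the membrane. Pex7 was at 50.4, 41.1 and 45.8 CPM in HKO and 34.3, 36.6 and 36.9 CPM in WT, without overlap (log2 fold change 0.35, SE 0.11, adjusted p = 0.0494). This call did not survive the removal of HKO 1, HKO 3 or any WT library (adjusted p from 0.114 to 0.142, and from 0.0275 to 0.142 over all alternatives), and was also lost with DESeq2 (0.0718), RLE size factors (0.0580), total library size (0.102), limma-voom (0.0505) or no filter on low counts (0.0720). Pex14 had 56.7, 48.4 and 48.5 CPM in HKO and 41.4, 38.8 and 42.4 CPM in WT, also without overlap, and lay just outside the threshold (log2 fold change 0.32, SE 0.10, adjusted p = 0.0545). Of its exon bases 28.3% overlap an antisense gene, Gm17029. Pex5, with means of 97.5 ± 15.4 CPM in HKO and of 78.6 ± 8.63 CPM in WT (SD, n = 3), had a log2 fold change of 0.31 (95% interval -0.01 to 0.63), and Pex13, with means of 55.2 ± 2.68 CPM in HKO and of 55.5 ± 4.51 CPM in WT, one of -0.01 (95% interval -0.24 to 0.22).

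After delivery, the import receptors are marked with ubiquitin by a RING finger complex that includes PEX2 and PEX10, and are pulled back out by an ATPase complex that includes PEX6, held at the membrane by PEX26. Pex6 rose, with 59.7, 55.8 and 57.6 CPM in HKO against 48.1, 46.0 and 45.6 CPM in WT (log2 fold change 0.31, SE 0.08, adjusted p = 0.0345). Its replicates were among the tightest of the set and the groups did not overlap, yet the call was lost without HKO 1, HKO 3 or any WT library (adjusted p from 0.0677 to 0.134, and from 0.0346 to 0.134 over all alternatives) and with DESeq2 (0.0552), total library size (0.113) or no filter on low counts (0.0644). Pex2 lay lower in all HKO libraries, at 30.1, 29.5 and 28.1 CPM in HKO against 30.3, 35.1 and 32.6 CPM in WT, but HKO 1 and WT 1 nearly met and the gene did not pass (log2 fold change -0.16, 95% interval -0.39 to 0.07). Pex10 was the Pex gene with the fewest counts, 50 to 90 per library, and gave a log2 fold change of 0.24 (95% interval -0.21 to 0.69). Pex26 was the least even of the Pex genes: it measured 12.6, 8.84 and 9.43 CPM in HKO and 7.50, 4.27 and 17.3 CPM in WT. WT 3 was the highest and WT 2 the lowest of all 6 libraries, so its log2 fold change of 0.09 had an interval of -0.93 to 1.12, and it was 0.80 without WT 3 and -0.27 without WT 2.

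The largest difference among the Pex genes was in Pex11a, and its paralog Pex11g did not share it. PEX11 proteins elongate the peroxisome membrane before the organelle divides. Pex11a (chromosome 7, 79735957 to 79743131, minus strand) was at 77.8, 69.1 and 78.8 CPM in HKO 1, 2 and 3, against 31.3, 38.8 and 41.4 CPM in WT 1, 2 and 3. The lowest HKO library lay well above the highest WT library, and the means differed 2.03-fold (log2 fold change 1.02, SE 0.13, adjusted p = 0.00163), and the call was kept under every alternative. Pex11g had 33.6, 30.9 and 30.1 CPM in HKO and 36.4, 35.1 and 33.0 CPM in WT, with overlap (log2 fold change -0.14, 95% interval -0.37 to 0.08). The 95% intervals of the pair, 0.73 to 1.31 for Pex11a and -0.37 to 0.08 for Pex11g, did not meet, although their difference was not itself tested and 41.1% of the exon bases of Pex11g overlap Gm44775 on the opposite strand.

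**Figure D3:**
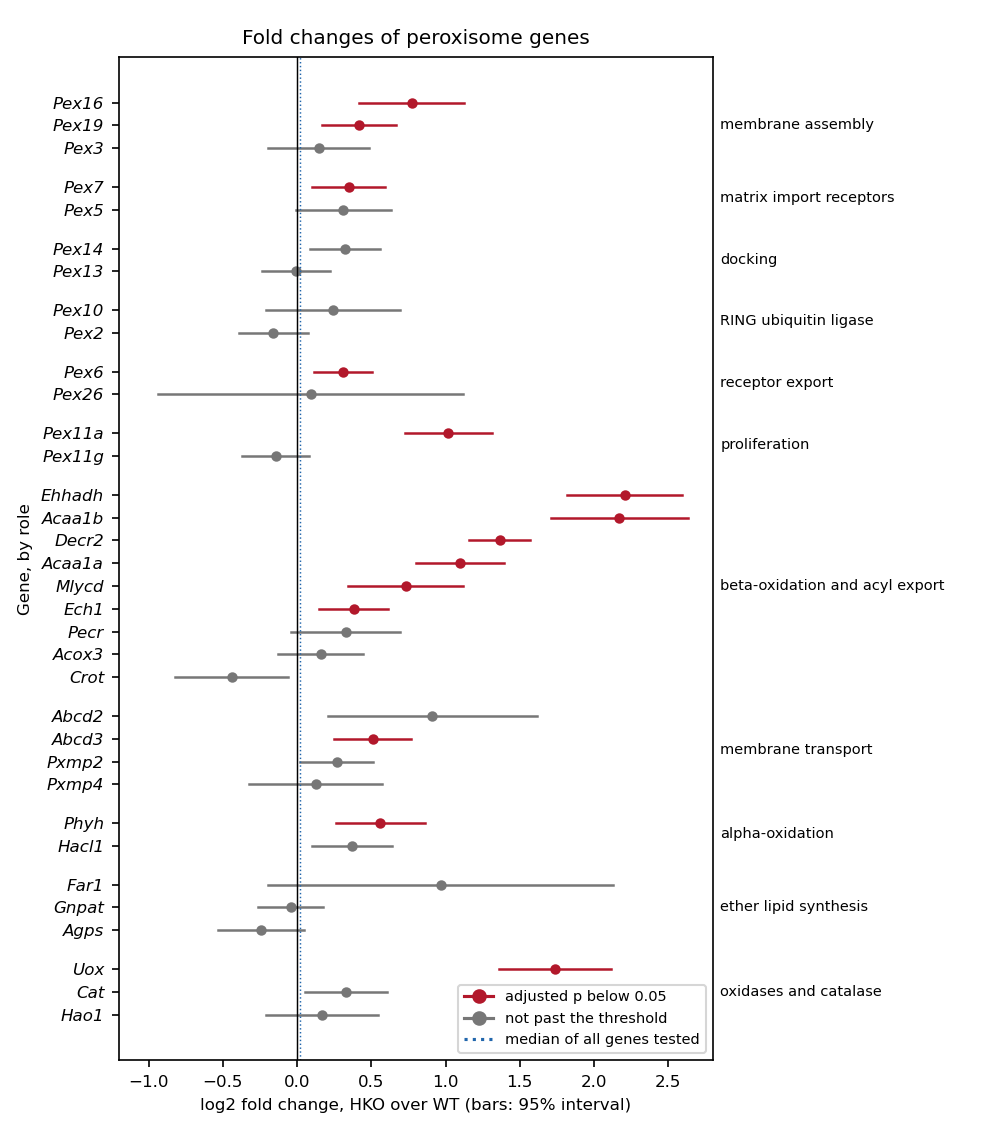
Points are log2 fold changes of HKO over WT with their 95% intervals as bars, red where the adjusted p was below 0.05 and grey elsewhere, with the 34 tested genes down the page by role and the median of all genes tested as a dotted line at 0.02. The 5 largest values in enzymes and transport run from 1.10 (Acaa1a) to 2.21 (Ehhadh), the largest Pex value is 1.02 (Pex11a), and no interval of a called gene reaches 0.

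The group of peroxisomal beta-oxidation and acyl export held the largest rises of the set. This group also takes in Mlycd, Crot and Pecr. Of its 9 genes 6 rose (66.7%) and none fell, where 12.1% of all tested genes rose and 11.2% fell. The median change of the 9 genes was 0.73 (log2). Ehhadh (chromosome 16, 21761287 to 21787844, minus strand) encodes the bifunctional enzyme that hydrates and dehydrogenates the acyl chain. It was at 540, 520 and 577 CPM in HKO 1, 2 and 3, against 149, 95.7 and 111 CPM in WT 1, 2 and 3. Every HKO library lay far above every WT library, 4.61-fold in the means (log2 fold change 2.21, SE 0.17, adjusted p = 0.000298). Acaa1b and Acaa1a encode thiolases that split off acetyl-CoA in the last step. Acaa1b (chromosome 9, 119148023 to 119157093, minus strand) measured 453, 358 and 385 CPM in HKO and 117, 72.5 and 76.3 CPM in WT (log2 fold change 2.17, SE 0.20, adjusted p = 0.000532). Acaa1a (chromosome 9, 119339676 to 119350299, plus strand) measured 191, 142 and 154 CPM in HKO and 80.4, 76.4 and 71.0 CPM in WT (log2 fold change 1.10, SE 0.13, adjusted p = 0.00134). For both thiolases every HKO library lay above every WT library, and for both WT 1 was the highest WT library. The pair is alike in sequence: 583 of the 1913 different 50-base words in the transcripts of Acaa1b also occur in those of Acaa1a. The labels do not say how reads matching both were assigned, so the split between them is uncertain. Exons of Acaa1b also overlap those of Dlec1 on the opposite strand by 224 bases, and those of Acaa1a overlap Myd88 by 290 bases. Counts with no stated strand cannot separate these either.

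Upstream sequences were searched for the element that PPAR-alpha binds with its partner RXR, a direct repeat of AGGTCA with a single base between. Whether PPAR-alpha took part in the rises was not tested. The 250 bases before the RefSeq start site (GRCm38.p6) are given for Ehhadh, Acaa1b and Uox, the genes with the 3 largest fold changes. They are also given for Cat, which held the closest match of all members. Such a window can lie inside the gene's deposited coordinates, as that of Uox does (146570426 to 146632305 on chromosome 3). Capitals mark the stretch that differs in the fewest letters from AGGTCANAGGTCA on either strand, with 4, 4, 4 and 2 of the 12 fixed letters different. The closest stretch is marked however many letters differ, and the share of all windows with 4 letters different was not counted.
Ehhadh, chr16:21787835-21788084, minus strand: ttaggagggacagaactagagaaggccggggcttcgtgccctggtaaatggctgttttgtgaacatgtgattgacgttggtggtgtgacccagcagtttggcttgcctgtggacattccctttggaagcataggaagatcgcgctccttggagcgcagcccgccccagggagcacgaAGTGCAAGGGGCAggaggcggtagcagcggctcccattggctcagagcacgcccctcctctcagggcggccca
Acaa1b, chr9:119157094-119157343, minus strand: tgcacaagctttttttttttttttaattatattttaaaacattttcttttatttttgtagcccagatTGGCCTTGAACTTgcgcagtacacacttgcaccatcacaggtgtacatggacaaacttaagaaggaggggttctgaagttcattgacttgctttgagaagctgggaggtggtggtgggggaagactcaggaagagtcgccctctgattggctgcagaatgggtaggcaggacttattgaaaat
Uox, chr3:146596899-146597148, plus strand: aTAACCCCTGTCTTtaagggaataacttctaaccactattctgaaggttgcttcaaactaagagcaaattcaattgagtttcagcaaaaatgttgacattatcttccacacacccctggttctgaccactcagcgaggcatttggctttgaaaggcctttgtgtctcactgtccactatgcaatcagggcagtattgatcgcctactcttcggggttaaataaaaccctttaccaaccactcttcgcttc
Cat, chr2:103485154-103485403, minus strand: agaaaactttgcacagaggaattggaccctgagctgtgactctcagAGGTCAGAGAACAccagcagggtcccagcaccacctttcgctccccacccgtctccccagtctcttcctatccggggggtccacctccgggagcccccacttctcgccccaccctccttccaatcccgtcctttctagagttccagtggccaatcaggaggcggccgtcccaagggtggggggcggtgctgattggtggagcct
RefSeq promoter windows of 300 bases (250 before to 50 after the start) were matched for 31 of the 35 genes, in 37 windows. None held the full repeat or a copy with 1 letter changed, where 0.554% of all 32851 windows did so. A copy with at most 2 letters changed stood in 1 of 37 (2.70%), that of Cat, against 3.86% of all windows. With at most 3 letters changed it was 8 of 37 (21.6%), against 24.6% of all windows. Of the 15 windows of members that rose, 0 held a copy with at most 2 letters changed and 2 (13.3%) one with at most 3. The single motif AGGTCA alone stood in 4 of 37 windows (10.8%), those of Cat, Phyh, Pex11g and 1 window of Dao, against 16.3% of all windows. A match is a description of letters in this window, and elements farther from the start were not searched.

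Of the other genes of beta-oxidation and acyl export, Decr2, Mlycd and Ech1 rose. Decr2 (chromosome 17, 26081211 to 26090329, minus strand) encodes the peroxisomal 2,4-dienoyl-CoA reductase, needed for unsaturated fatty acids. Its values were 172, 156 and 161 CPM in HKO and 61.4, 65.0 and 63.5 CPM in WT. Both groups were narrow and far apart, which gave the smallest adjusted p of the set (log2 fold change 1.36, SE 0.09, adjusted p = 0.000192). Mlycd, whose product breaks down malonyl-CoA in several compartments, measured 74.2, 67.2 and 70.6 CPM in HKO and 31.7, 51.1 and 44.8 CPM in WT (log2 fold change 0.73, SE 0.17, adjusted p = 0.0184). Ech1, a dienoyl-CoA isomerase gene whose product is found in peroxisomes and mitochondria, was at 271, 229 and 229 CPM in HKO and 182, 186 and 191 CPM in WT (log2 fold change 0.38, SE 0.10, adjusted p = 0.0295). Neither gene overlapped between groups. The call of Mlycd was lost without HKO 1, HKO 3 or WT 3 (adjusted p from 0.0531 to 0.0622, and from 0.00118 to 0.0622 over all alternatives), and that of Ech1 without any library but HKO 2 (adjusted p from 0.0593 to 0.102, and from 0.0158 to 0.102 over all alternatives) and with total library size (0.0708).

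The remaining genes of this group did not pass. Crot, whose product turns shortened acyl chains into carnitine esters for export to mitochondria, was the member with the lowest log2 fold change, -0.44 (SE 0.17, adjusted p = 0.0904). It measured 524, 549 and 538 CPM in HKO and at 547, 841 and 799 CPM in WT. WT 1 lay within the HKO range, and without WT 1 the fold change was -0.62 with an adjusted p of 0.00969 (from 0.00969 to 0.259 over all alternatives). Pecr, an enoyl-CoA reductase gene, had 119, 86.9 and 108 CPM in HKO and 67.7, 90.7 and 91.7 CPM in WT (log2 fold change 0.33, 95% interval -0.04 to 0.70). Acox3, which encodes an oxidase for branched acyl chains, had 23.3 ± 3.06 CPM in HKO and 20.9 ± 1.02 CPM in WT (log2 fold change 0.16, 95% interval -0.13 to 0.45).

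In the membrane, 1 of 4 transport genes rose (25%), where 12.1% of all tested genes did so. ABCD3, also known as PMP70, brings branched and dicarboxylic acyl chains into the organelle. Abcd3 was at 431, 389 and 379 CPM in HKO and 275, 256 and 311 CPM in WT, without overlap (log2 fold change 0.51, SE 0.11, adjusted p = 0.0154), and its call was lost without HKO 1, WT 1 or WT 2 (adjusted p = 0.0539, 0.0506 and 0.0644, and from 0.00125 to 0.0644 over all alternatives). Abcd2, a related transporter gene for very long chains, had 12.1, 28.0 and 15.3 CPM in HKO and 7.9999, 10.6 and 10.8 CPM in WT. HKO 2, in which endothelial and stellate markers were highest, held by far the most. Its log2 fold change was 0.91 (SE 0.30, adjusted p = 0.0654), 1.12 without HKO 1 (adjusted p = 0.0391) and 0.48 without HKO 2 (adjusted p = 0.0931, and from 0.0173 to 0.164 over all alternatives). Pxmp2, which encodes a channel of the peroxisome membrane, had 72.5, 58.3 and 62.2 CPM in HKO and 52.1, 53.7 and 54.6 CPM in WT, separate but not past the test (log2 fold change 0.27, 95% interval 0.02 to 0.51, adjusted p = 0.104). Pxmp4 overlapped, at 103, 94.03 and 100 CPM in HKO and 62.6, 111 and 98.98 CPM in WT (log2 fold change 0.13, 95% interval -0.32 to 0.58).

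Alpha-oxidation removes a carbon from phytanic acid, a branched fatty acid of the diet. The 2 genes placed under it in this set were higher in every HKO library than in any WT library, where 22.6% of all tested genes were so. Phyh, which encodes the hydroxylase of the first step, was at 1625, 1248 and 1457 CPM in HKO and 951, 989 and 992 CPM in WT. The WT libraries were close together and HKO 2 was the HKO library nearest to them (log2 fold change 0.56, SE 0.13, adjusted p = 0.0190). The call was lost without any library but HKO 2 (adjusted p from 0.0551 to 0.0831, and from 0.000448 to 0.0831 over all alternatives). Hacl1, which encodes the lyase of the next step, had 269, 241 and 239 CPM in HKO and 167, 211 and 203 CPM in WT and lay just outside the threshold (log2 fold change 0.37, SE 0.12, adjusted p = 0.0550). Gene Gm49387 shares 31.1% of the exon bases of Hacl1 on the same strand.

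None of the 3 genes of ether lipid synthesis in the set passed the test, where 12.1% of all tested genes rose and 11.2% fell. GNPAT and AGPS make the first ether intermediates inside the peroxisome, and FAR1 supplies the fatty alcohol. Gnpat was at 39.4, 41.2 and 36.6 CPM in HKO and 42.4, 39.1 and 39.1 CPM in WT (log2 fold change -0.04, 95% interval -0.26 to 0.18). Agps was at 13.5, 17.0 and 14.4 CPM in HKO and 16.8, 18.9 and 17.5 CPM in WT, with HKO 2 inside the WT range (log2 fold change -0.24, 95% interval -0.53 to 0.05). Far1 was barely detected, with 16, 39 and 24 counts in HKO 1, 2 and 3 and 7, 16 and 14 counts in WT 1, 2 and 3, and its log2 fold change of 0.97 (95% interval -0.19 to 2.13) was 0.46 without HKO 2.

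Among the oxidases, urate oxidase stood apart. Uox (chromosome 3, 146570426 to 146632305, plus strand) encodes the enzyme that oxidizes uric acid in mice, a function lost in humans. It was at 2074, 1502 and 1970 CPM in HKO 1, 2 and 3, against 488, 605 and 572 CPM in WT 1, 2 and 3. Even HKO 2, the lowest HKO library, was far above the highest WT library, and the means differed 3.33-fold (log2 fold change 1.74, SE 0.16, adjusted p = 0.000553). Cat, which encodes catalase, the enzyme that removes hydrogen peroxide, was at 1450, 1296 and 1486 CPM in HKO and 1028, 1198 and 1142 CPM in WT. These did not overlap, but the gap was small and the gene did not pass (log2 fold change 0.33, SE 0.12, adjusted p = 0.0839); without HKO 2 it did (adjusted p = 0.0491, and from 0.0388 to 0.229 over all alternatives). Hao1, the gene of glycolate oxidase, had 288, 223 and 275 CPM in HKO and 183, 261 and 255 CPM in WT (log2 fold change 0.17, 95% interval -0.21 to 0.54).

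Between genes, levels can be compared only per length, for which the authors' deposited FPKM values were used. The length implied by these values can differ from a gene's exon bases in GENCODE. It was 13172 against 5667 bases for Pex26, 6498 against 5007 for Uox, 2434 against 2284 for Hao1 and 3907 against 12092 for Pex7. The order of genes given here therefore depends on the deposited lengths. In HKO the highest levels were those of Phyh (655 ± 116 FPKM), Cat (451 ± 56.2), Uox (286 ± 60.9), Ehhadh (181 ± 18.6) and Acaa1b (176 ± 28.6), each as mean ± SD of 3 libraries. In WT the order was Phyh (442 ± 12.2 FPKM), Cat (357 ± 10.5), Crot (125 ± 21.97), Hao1 (95.2 ± 13.6) and Uox (85.1 ± 5.25), with Ehhadh at 39.5 ± 11.2 and Acaa1b at 39.4 ± 13.04 FPKM. Ehhadh and Acaa1b did not differ from each other beyond their spread in either genotype, nor did Hao1 and Uox in WT. Of the Pex genes the highest was Pex16, at 25.3 ± 5.87 FPKM in HKO and 14.8 ± 2.28 FPKM in WT, and the lowest were Pex10, at 0.737 ± 0.0619 FPKM in HKO and 0.625 ± 0.106 FPKM in WT, and Pex26, at 0.783 ± 0.180 FPKM in HKO and 0.734 ± 0.502 FPKM in WT. Far1 had the lowest level of the tested genes, 0.114 ± 0.0542 FPKM in HKO and 0.0583 ± 0.0211 FPKM in WT.

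**Figure D4:**
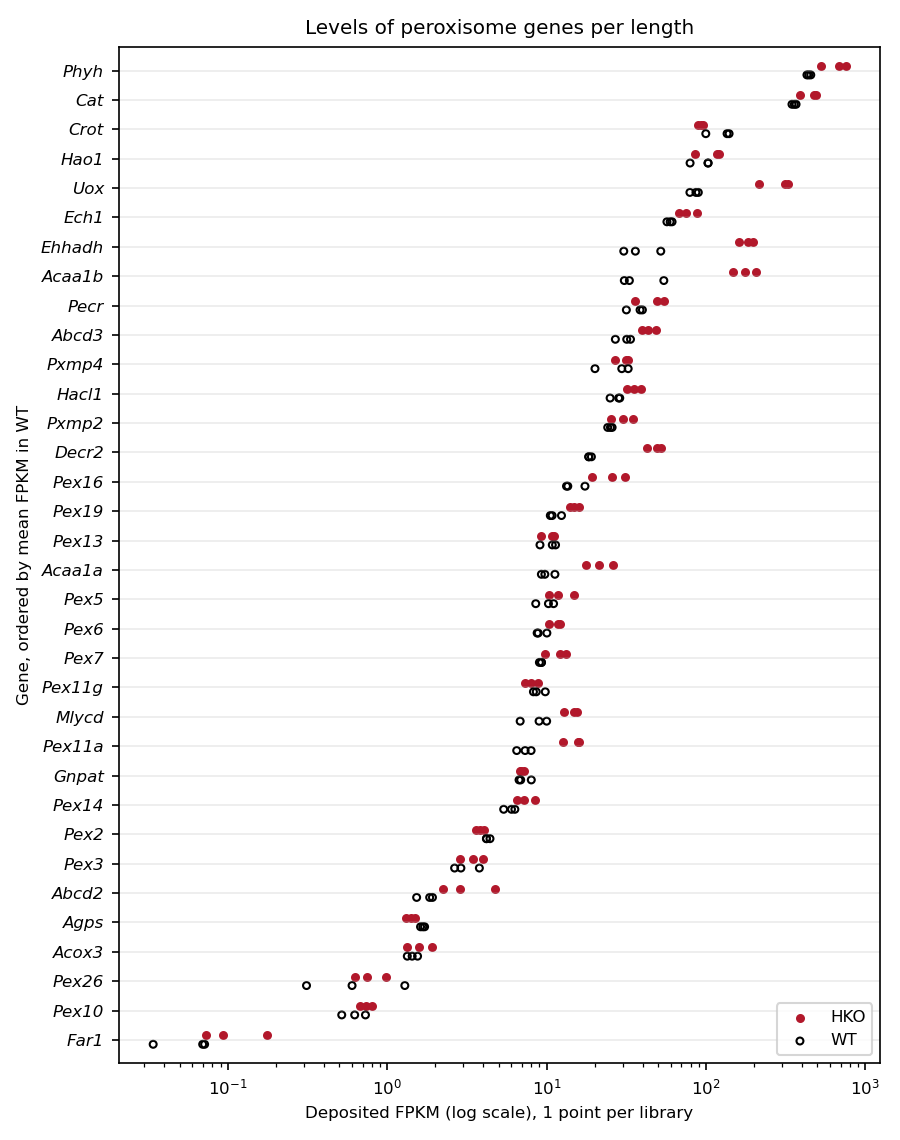
Deposited FPKM on a log axis for the 34 tested genes, ordered by their mean in WT with the highest at the top, as filled red points for the 3 HKO libraries and open points for the 3 WT libraries. Phyh and Cat lead in both genotypes, Uox, Ehhadh and Acaa1b are displaced to the right in HKO, and no Pex gene exceeds the 30.8 FPKM of Pex16 in HKO 1.

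A further list of 43 peroxisomal genes outside the set, also chosen with earlier results of these data known, showed similar shares. Of its 41 tested genes 17 rose (41.5%) and 2 fell, where 12.1% of all tested genes rose and 11.2% fell. The median change of the list was 0.32 (log2), against 0.02 for all genes tested. The largest rises were those of Eci2 (log2 fold change 1.45, SE 0.10, adjusted p = 0.000243), an enoyl-CoA isomerase gene, Ephx2 (1.44, SE 0.14, adjusted p = 0.000733), which encodes soluble epoxide hydrolase, and Acot4 (1.34, SE 0.15, adjusted p = 0.00110), a thioesterase gene. The 2 that fell were Nudt7 (-0.998, SE 0.15, adjusted p = 0.00355), whose product cleaves coenzyme A, and Dnm1l (-0.43, SE 0.09, adjusted p = 0.0142), the gene of the dynamin-like GTPase that divides peroxisomes and mitochondria. Nudt7 had 139, 93.2 and 123 CPM in HKO and 222, 243 and 244 CPM in WT, and Dnm1l had 40.3, 46.0 and 43.7 CPM in HKO and 57.5, 57.2 and 60.1 CPM in WT. Both were thus lower in every HKO library than in any WT library.

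Of 8 genes of the 3 PPAR receptors, the partner RXR and coregulators, 1 rose (12.5%), beside 12.1% of all tested genes. The 8 were Ppara, Ppard, Pparg, Rxra, Ppargc1a, Ncor1, Ncoa1 and Med1. Ppara, which encodes PPAR-alpha, was at 44.0, 75.1 and 86.2 CPM in HKO and 32.3, 51.3 and 44.9 CPM in WT, with HKO 1 inside the WT range (log2 fold change 0.68, 95% interval 0.07 to 1.28, adjusted p = 0.0976). It passed with DESeq2 (adjusted p = 0.0383) and without HKO 1 (log2 fold change 0.90, adjusted p = 0.0287), over a range of 0.0211 to 0.260 for all alternatives. Rxra, the gene of its partner, was at 388, 390 and 459 CPM in HKO and 312, 367 and 338 CPM in WT, without overlap but not past the test (log2 fold change 0.28, 95% interval 0.02 to 0.55, adjusted p = 0.108). Ppargc1a, which encodes a coactivator induced by fasting, rose, at 14.7, 15.2 and 20.4 CPM in HKO and 6.17, 10.8 and 8.60 CPM in WT (log2 fold change 0.97, SE 0.23, adjusted p = 0.0195), and lost its call without HKO 3 or WT 3 (adjusted p = 0.0626 and 0.0721, and from 0.00138 to 0.0721 over all alternatives).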

How the data were processed

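Liver RNA-seq libraries of HKO (n = 3) and WT (n = 3) mice were grouped by their GEO titles. The authors deposited, per the file headers, whole-number counts per gene and FPKM in 1 table, with coordinates on GRCm38. HISAT2 2.0.4, StringTie 1.3.0 and the builds mm10 and GRCm38.p4 are named in the submitters' processing notes; how reads were counted, and on which strand, is not stated there or in the labels. Deposited FPKM matched the counts through 1 length per gene, within 0.00185% over 9308 genes.

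Counts were scaled by TMM and tested with edgeR 4.0.16 (quasi-likelihood F test, filterByExpr, Benjamini-Hochberg adjustment over 12556 genes, adjusted p below 0.05) in R 4.3.3; 16194 genes were at 0 in every library. The procedure was tested on simulated data. Intervals are 95% intervals of the fold change. Alternatives were DESeq2 1.42.0, limma-voom 3.58.1, RLE and total-size scaling, no filter, mitochondrial genes left out, a replicate block, and each library left out. Library depth, 16659778 to 21168233 counts, limits the precision of low genes such as Far1 and Pex10. Promoter windows came from RefSeq (GRCm38.p6) and exon overlaps from GENCODE. The members and lists were chosen with earlier results of these data known. All members were described; of the other peroxisomal genes, the 3 with the largest called changes in each direction were named, where that many existed.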

Additional observations from a re-analysis of the deposited data

How the results depend on the processing

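Over all pairs of 1 of the 34 tested peroxisomal members and 1 of the 13 alternatives, 381 kept direction and side of the threshold, 45 lost the call, 9 gained it and 7 changed sign. Leaving out 1 library gave 722 to 1589 higher and 682 to 1546 lower genes in the whole table, and a median log2 fold change of all genes of 0.0036 to 0.020 (0.0415 with no filter on low counts). The Pex genes that rose numbered 3 with DESeq2, with total library size, with no filter and with the replicate block, and 1 to 4 with 1 library left out, with medians of 0.18 to 0.32. For enzymes and transport, 12 genes rose with DESeq2 (Cat, Hacl1 and Abcd2 in addition), 8 with the replicate block, 9 with each other tool, scaling or filter and 6 to 10 with 1 library left out; 1 gene (Crot) fell with DESeq2 and 0 to 1 with 1 library left out, and the median ran from 0.30 to 0.45. The further peroxisomal genes gave 11 to 17 higher and 1 to 2 lower. Sox9 ran from -1.29 to -0.83 with 1 library left out, and lost its call with the replicate block (-1.02, adjusted p = 0.0652). The sign changed with 1 library left out for Pex13 (-0.0763 to 0.0339), Pex26 (-0.27 to 0.80) and Pxmp4 (-0.0944 to 0.29). The cause of these changes was not tested, and the fits with 1 library left out also had fewer libraries. Libraries with the same number in both genotypes did not deviate together (correlations of 0.01, -0.01 and 0.06), so the numbers were not taken as pairs; the block gave 1245 higher and 1115 lower genes in all. With it Pex7, Pex6, Ech1 and Phyh lost their calls (adjusted p = 0.0936, 0.0760, 0.0737 and 0.0620), and Abcd2 and Ppara passed (0.0374 and 0.0211).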

Other observations

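The deposited table annotates 83 genes with the KEGG pathway Peroxisome, a list chosen after the file was seen. Of its 75 tested genes 29 were higher in HKO than in WT, 5 were lower and 41 did not pass the test, with a median log2 fold change of 0.33. Among the 42 tested genes of this annotation outside the 35 described above, 16 were higher, 5 were lower and the median was 0.34, where 12.1% of all tested genes were higher and 11.2% lower.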
